A study of Homo sapiens with 8 samples.

Results

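The genes described here encode FOXM1, MYBL2 (B-MYB) and the MuvB complex, together with the MuvB-associated E2F partner TFDP1. The 8 symbols FOXM1, MYBL2, LIN9, LIN37, LIN52, LIN54, RBBP4 and TFDP1 were looked up by name in a deposited expression table, which lists 27946 genes. Each of the 8 was found, and each passed the filter on low values, as 8 of the 13790 genes that were tested. The values come from EA.hy926, an immortalized human line that is a hybrid of umbilical vein endothelium and a lung carcinoma. Total RNA depleted of rRNA was sequenced from 2 control libraries, 3 libraries of clones without the enhancer E2 (ΔE2) and 3 libraries of clones without SE12313-b (ΔSE12313-b). Both elements belong to the super-enhancer SE12313 on chromosome 16, and both were removed with Cas9 ribonucleoproteins. All groups were grown in the same medium and no further agent is given in the labels. Each deleted line grew from a single cell, so a group of 3 holds 3 clones. The labels carry the word clones for the controls too, and the study's proliferation assay used controls transfected with guide RNAs. Whether the control RNA was from those cells is not given in the sources used here.

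MuvB is a core of LIN9, LIN37, LIN52, LIN54 and RBBP4 that changes its partners through the cell cycle. In resting cells it joins a pocket protein, an E2F and a DP protein such as TFDP1 to form DREAM, which represses cell cycle genes. In dividing cells MuvB releases these partners and binds MYBL2 and later FOXM1, and in that form it activates genes of G2 and mitosis. FOXM1 and MYBL2 are themselves cell cycle genes whose transcripts are low in resting cells and abundant in proliferating ones, endothelial cells included. In the study's own assays, however, clones of both deletions proliferated less than the controls and had a smaller share of cells in S phase. How this relates to the transcript levels below was not tested.

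Library size was 12696172 and 12067553 reads in the controls, 13616467 to 19101147 in ΔE2 and 14814167 to 16085524 in ΔSE12313-b. Of these, 8151646 and 7802451 lay on listed genes in the controls, 9981747 to 13374308 in ΔE2 and 11147231 to 12588574 in ΔSE12313-b. The share of reads on listed genes was thus lower in both controls than in any clone. The controls differed by little more than counting noise (chi-square per degree of freedom 1.19), whereas pairs of clones differed more (4.00 to 20.7 for ΔE2 and 8.41 to 22.9 for ΔSE12313-b), and ΔE2 clone 2 and ΔSE12313-b clone 3 were those farthest from the others of their group. ADAMTS18, the candidate target of the super-enhancer, fell by 1.97 on the log2 scale in ΔE2 (adjusted p = 0.0045, limma) and by 1.70 in ΔSE12313-b (adjusted p = 0.0078, limma). The deleted bases themselves are not measured by these values. Of 7 endothelial markers, PECAM1, CDH5, TEK, TIE1 and ERG were at 5.93 FPKM or more in every library. PECAM1 rose by 1.11 in ΔE2 and by 2.10 in ΔSE12313-b, and ERG by 1.25 and 1.09. TEK rose by 0.94 and TIE1 fell by 0.37 in ΔE2, and neither had an adjusted p under 0.05 in ΔSE12313-b. CDH5 had none under 0.05 in either deletion. VWF was at 2.02 and 1.83 FPKM in the controls and fell by 1.72 in ΔE2 and by 1.80 in ΔSE12313-b, and KDR was at 0.292 FPKM or less and failed the filter. Over the 7 endothelial markers the summed FPKM (reads per kilobase of transcript, normalized for library size) was 180 to 183 in the controls, 149 to 254 in ΔE2 and 158 to 208 in ΔSE12313-b. Over the 5 epithelial markers it was 232 to 239, 613 to 752 and 541 to 669, nearly all of it KRT8 and KRT18, while CDH1 was listed at 0 in every library. Of the leukocyte list, PTPRC and CD3E were under 0.1 FPKM throughout, while CD68, which is not confined to leukocytes, was at 24.3 to 40.4 FPKM, and the sum of 4 fibroblast markers stayed at 0.24 or less. The part of the keratin rise in the results below was not tested.

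In both deletions 7 of the 8 genes rose, and 5 of them, FOXM1, MYBL2, LIN9, LIN54 and TFDP1, rose at least 2-fold with an adjusted p under 0.05 (limma with Benjamini-Hochberg adjustment over all tested genes), which is the rule for a call here. By the same rule 11.2% of all tested genes were called higher in ΔE2 and 14.7% in ΔSE12313-b. An adjusted p under 0.05 at any size was reached upwards by 34.7% of all genes in ΔE2 and by 43.0% in ΔSE12313-b. Both deletions were compared with the same 2 control libraries, so their changes are not independent of each other. For the 8 genes the log2 fold change had a median of 1.24 in ΔE2 and of 1.35 in ΔSE12313-b, against 0.14 and 0.27 over all tested genes. As the whole distribution was shifted upwards in this way, the smaller changes of the 8 genes are also given with each library centred on its median log2 ratio. The part that the lower share of control reads on listed genes has in this shift was not tested. For partners, regulators and neighbouring genes it is said where centring changed the side of an adjusted p of 0.05 or changed a call. In RNA from a whole culture, more cells with a transcript and more transcript per cell cannot be told apart. Nothing in the labels says that the controls came from separate cultures, so the p values measure the spread between these samples, which for the controls may be technical.

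**Figure D1:**
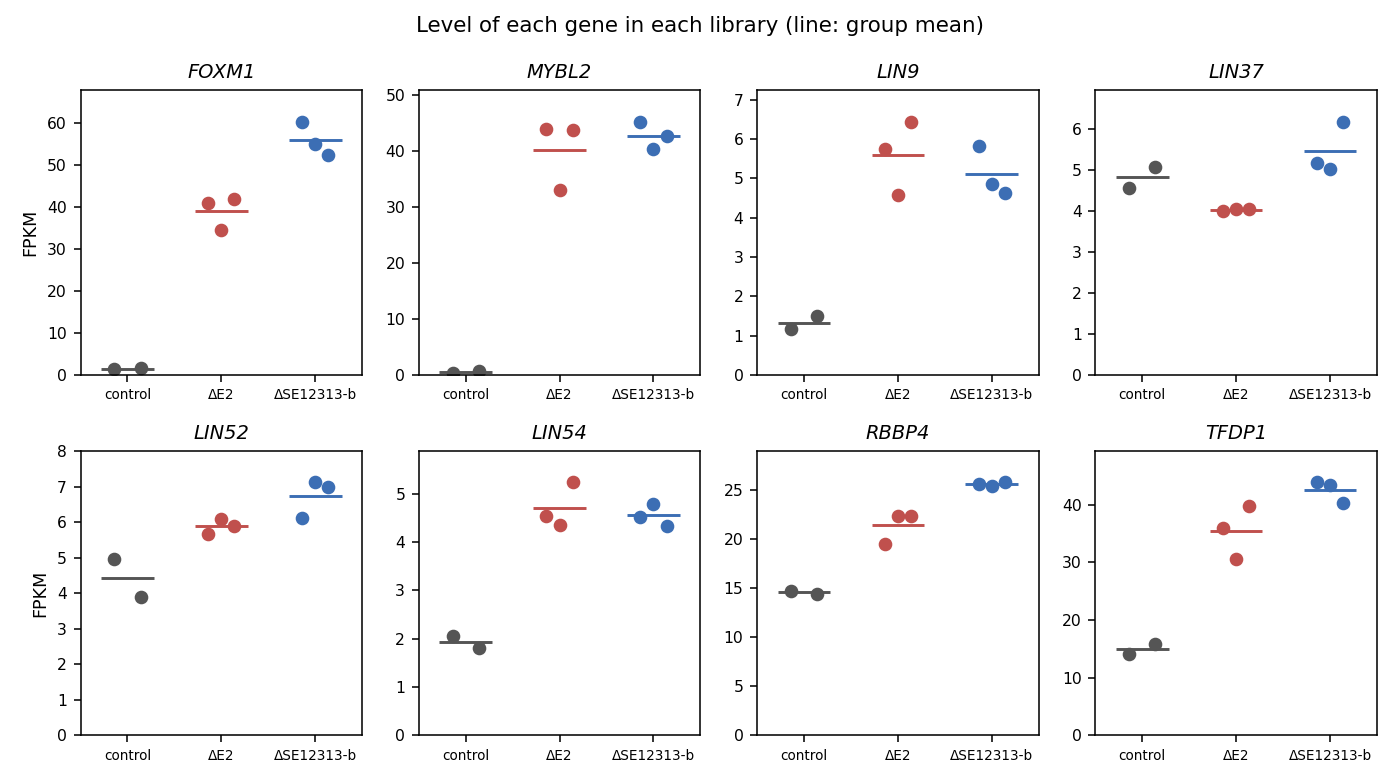
FPKM of FOXM1, MYBL2, LIN9, LIN37, LIN52, LIN54, RBBP4 and TFDP1 in each of the 8 libraries (points), with the group mean as a line and a vertical axis that starts at 0 for each gene. FOXM1 and MYBL2 are at 1.62 FPKM or less in both controls and at 33.0 FPKM or more in all 6 clones, while the 3 groups lie close together for LIN37.

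FOXM1, a forkhead transcription factor that drives genes of G2 and mitosis, is encoded on the minus strand of chromosome 12 (chr12:2966847-2986321, GRCh37). Its level was 1.41 and 1.62 FPKM in the 2 controls. In the ΔE2 clones it was 41.1, 34.6 and 42.0 FPKM, and in the ΔSE12313-b clones 60.4, 55.0 and 52.3 FPKM. No clone came near the controls, and every ΔSE12313-b clone was above every ΔE2 clone. The values rest on 63 and 69 reads in the controls and on 2013 to 3420 reads in the clones. The ratio of mean FPKM to the control was 25.9 in ΔE2 and 36.9 in ΔSE12313-b. On the log2(FPKM + 0.1) scale FOXM1 rose by 4.60 ± 0.11 (SE, n = 3 against 2) in ΔE2, with an adjusted p of 2.08e-07 by limma. In ΔSE12313-b it rose by 5.12 ± 0.11 (adjusted p = 1.27e-07, limma).

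MYBL2, the MYB family factor that binds MuvB in S phase, is encoded on the plus strand of chromosome 20 (chr20:42295659-42345136). It had the lowest level of the 8 genes in the controls, 0.314 and 0.750 FPKM, which correspond to 11 and 25 reads. The ΔE2 clones held 43.9, 33.0 and 43.8 FPKM, and the ΔSE12313-b clones 45.2, 40.4 and 42.6 FPKM. The clones of the 2 deletions overlapped, and all of them were far above the controls. The ratio of means was 75.6 in ΔE2 and 80.3 in ΔSE12313-b. MYBL2 rose by 6.07 ± 0.27 (SE) on the log2 scale in ΔE2 (adjusted p = 1.86e-06, limma) and by 6.17 ± 0.27 in ΔSE12313-b (adjusted p = 1.54e-06, limma), the largest change among the 8 genes in either deletion. With so few control reads its size depends on the pseudocount, and it lay between 4.75 and 6.33 in ΔE2 with pseudocounts of 1 and 0.01. It was 5.56 and 5.65 in the 2 deletions without control 1, against 6.59 and 6.69 without control 2.

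Of the 5 subunits of the MuvB core, LIN9 and LIN54 were called in both deletions, RBBP4 and LIN52 rose by less than 2-fold, and LIN37 did not pass the test. LIN9, a scaffold subunit that contacts MYBL2, is encoded at chr1:226418850-226497449 on the minus strand. It was at 1.16 and 1.49 FPKM in the controls, at 5.76, 4.59 and 6.44 FPKM in ΔE2 and at 5.82, 4.86 and 4.63 FPKM in ΔSE12313-b. Every clone was well above both controls, and the deletions overlapped. LIN9 rose by 1.99 ± 0.18 in ΔE2 (adjusted p = 7.26e-05, limma) and by 1.87 ± 0.18 in ΔSE12313-b (adjusted p = 7.65e-05, limma).

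LIN54, the subunit whose cysteine-rich domains bind the CHR element of promoters, is encoded at chr4:83845757-83931987 on the minus strand. Its controls were at 2.05 and 1.82 FPKM, its ΔE2 clones at 4.54, 4.34 and 5.24 FPKM and its ΔSE12313-b clones at 4.52, 4.79 and 4.33 FPKM. All 6 clones were above both controls by a similar margin. LIN54 rose by 1.24 ± 0.12 in ΔE2 (adjusted p = 0.00010, limma) and by 1.195 ± 0.120 in ΔSE12313-b (adjusted p = 9.34e-05, limma). It stayed significant but fell under 2-fold with a pseudocount of 1, at 0.96 and 0.92, and in ΔSE12313-b also after centring, at 0.91.

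RBBP4, a histone-binding WD40 protein that MuvB shares with several chromatin complexes, is encoded at chr1:33116959-33151812 on the plus strand. It was already abundant in the controls, at 14.7 and 14.4 FPKM. The ΔE2 clones held 19.5, 22.3 and 22.4 FPKM and the ΔSE12313-b clones 25.6, 25.4 and 25.8 FPKM. The 3 groups did not overlap, and none of the differences from the control reached 2-fold. RBBP4 rose by 0.55 ± 0.08 in ΔE2 (adjusted p = 0.00078, limma) and by 0.81 ± 0.08 in ΔSE12313-b (adjusted p = 8.70e-05, limma). After centring it still rose, by 0.39 and 0.52.

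LIN52, the subunit whose phosphorylation by DYRK1A favours DREAM, is encoded at chr14:74551656-74667117 on the plus strand. The controls held 4.97 and 3.89 FPKM, the ΔE2 clones 5.67, 6.10 and 5.91 FPKM and the ΔSE12313-b clones 6.113, 7.127 and 6.996 FPKM. All clones were above both controls, but the controls lay farther apart than the ΔE2 clones did. LIN52 rose by 0.41 ± 0.13 in ΔE2 (adjusted p = 0.025, limma) and by 0.60 ± 0.13 in ΔSE12313-b (adjusted p = 0.0040, limma). Neither had an adjusted p under 0.05 after centring, where the values were 0.26 (adjusted p = 0.12) and 0.32 (adjusted p = 0.065). In ΔE2 the adjusted p was also above 0.05 without control 2 (0.24, adjusted p = 0.20), without ΔE2 clone 2 (0.39, adjusted p = 0.054) and without ΔE2 clone 3 (0.41, adjusted p = 0.060).

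LIN37, a subunit needed for repression by DREAM, is encoded at chr19:36239262-36245420 on the plus strand and was the exception. The controls held 4.56 and 5.09 FPKM, the ΔE2 clones 4.00, 4.05 and 4.06 FPKM and the ΔSE12313-b clones 5.19, 5.04 and 6.19 FPKM. The ΔE2 clones were below both controls, and the ΔSE12313-b clones overlapped with them. The log2 fold change was -0.25 ± 0.12 in ΔE2 (95% interval -0.52 to 0.02, adjusted p = 0.10, limma) and 0.17 ± 0.12 in ΔSE12313-b (interval -0.09 to 0.44, adjusted p = 0.23). After centring the value in ΔE2 was -0.41 with an adjusted p of 0.017, and that in ΔSE12313-b turned to -0.12 with an adjusted p of 0.41. The values rest on 63 to 112 reads per library.

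TFDP1, the DP1 protein that pairs with E2F factors in DREAM and in activating complexes, is encoded at chr13:114239003-114295788 on the plus strand. It was at 14.1 and 15.8 FPKM in the controls, the highest mean of the 8 genes there. The ΔE2 clones held 35.9, 30.6 and 39.7 FPKM and the ΔSE12313-b clones 43.9, 43.4 and 40.3 FPKM. All clones were above the controls, and every ΔSE12313-b clone was above every ΔE2 clone. TFDP1 rose by 1.23 ± 0.12 in ΔE2 (adjusted p = 8.36e-05, limma) and by 1.501 ± 0.115 in ΔSE12313-b (adjusted p = 2.39e-05, limma). With quantile normalization the change in ΔE2 was 0.95, just under 2-fold, and still significant.

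The 5 calls in each deletion did not rest on the clones that stood apart. Without ΔE2 clone 2 the changes in ΔE2 were 4.69 for FOXM1, 6.21 for MYBL2, 2.13 for LIN9, 1.29 for LIN54, 1.33 for TFDP1, 0.52 for RBBP4 and -0.25 for LIN37, and the same 5 genes were called. Without ΔSE12313-b clone 3 the changes in ΔSE12313-b were 5.16 for FOXM1, 6.17 for MYBL2, 1.94 for LIN9, 1.23 for LIN54, 1.54 for TFDP1, 0.81 for RBBP4, 0.58 for LIN52 and 0.08 for LIN37, again with the same 5 called.

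**Figure D2:**
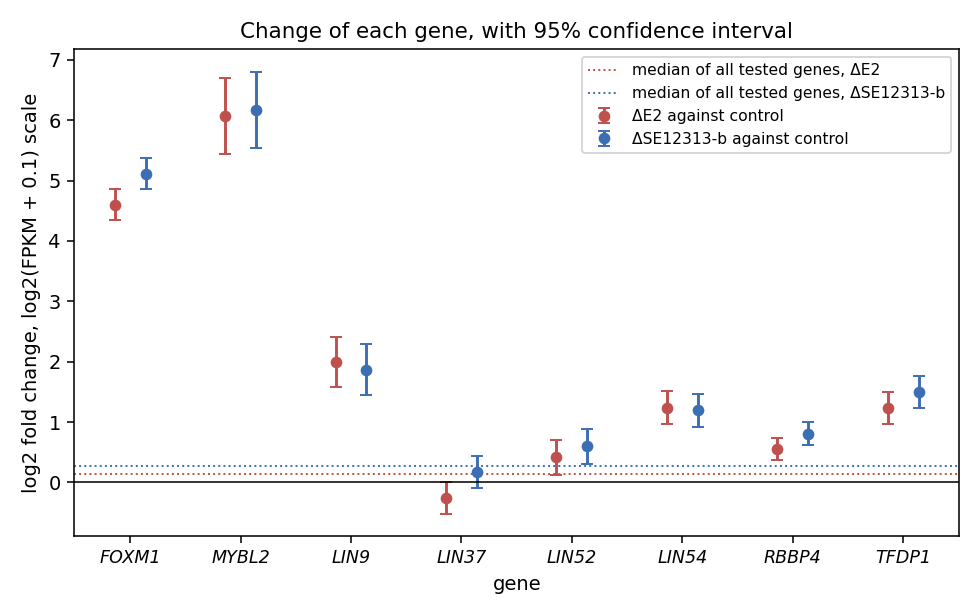
Log2 fold change of FOXM1, MYBL2, the MuvB genes and TFDP1 on the log2(FPKM + 0.1) scale, in ΔE2 (red) and ΔSE12313-b (blue) against the 2 controls, with 95% confidence intervals from limma. The dotted lines are the medians over all tested genes, 0.14 and 0.27, and the intervals of LIN37 include 0 in both deletions.

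Several of these loci overlap with others, and the handling of strands in the table is not given. In the Gencode annotation of GRCh37, 15.9% of the exon bases of FOXM1 are shared with ITFG2 on the opposite strand. ITFG2 was between 2.15 and 3.68 FPKM in all 8 libraries. Its listed transcript (chr12:2921787-2934237) ends before FOXM1, so this value does not measure the shared bases. The part of antisense reads in the control value of FOXM1 was not tested. RBBP4 shares 23.3% of its exon bases with SYNC on the opposite strand, and SYNC was at 0.72 FPKM or less. For LIN37, 41.8% of the exon bases are shared with ENSG00000267439 on the opposite strand and 26.7% with ENSG00000188223 on its own strand, neither of which is listed in the table, so its value is uncertain. RBBP4 and TFDP1 have 7 and 3 annotated pseudogenes, with which their reads may be shared. Other transcripts listed for each gene gave similar levels, from 88.5% to 103% of the row that was kept, apart from the second transcript of MYBL2, which was at 74.5% in the library where it was lowest.

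The order of the levels differed between the groups. In the controls TFDP1 (mean 15.0 FPKM) and RBBP4 (14.5) came first and did not differ beyond their spread, nor did LIN37 (4.83) and LIN52 (4.43) after them. LIN54 (1.93) was above FOXM1 (1.52), FOXM1 overlapped with LIN9 (1.33), and MYBL2 (0.532) came last. In ΔE2 the ranges of MYBL2 (40.2), FOXM1 (39.2) and TFDP1 (35.4) overlapped at the top, RBBP4 (21.4) followed, and LIN37 (4.04) was lowest, below every value of LIN54 (4.71). By mean, LIN52 (5.89) and LIN9 (5.59) lay between RBBP4 and LIN54, and neither pair of neighbours from LIN52 to LIN54 was separated. In ΔSE12313-b FOXM1 (55.9) stood above MYBL2 (42.7) and TFDP1 (42.5), which overlapped, and RBBP4 (25.6) came next. There LIN52 (6.75), LIN37 (5.47), LIN9 (5.10) and LIN54 (4.55) each overlapped with the neighbour in that order.

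Among the 13790 tested genes, 5.9% had a lower mean than MYBL2 in the controls, compared with 90.0% in ΔE2 and 89.5% in ΔSE12313-b. For FOXM1 these shares were 19.1%, 89.6% and 92.3%. LIN9 moved from 17.0% to 44.1% and 39.8%, whereas LIN37 stayed in the middle of the distribution at 43.3%, 36.1% and 41.4%. The ratio of the FPKM of MYBL2 to that of its binding subunit LIN9 within a library was 0.271 and 0.503 in the controls, 6.80 to 7.63 in ΔE2 and 7.78 to 9.19 in ΔSE12313-b. The FPKM of LIN37 relative to LIN9 went the other way, from 3.42 and 3.93 in the controls to 0.631 to 0.883 in ΔE2 and 0.891 to 1.34 in ΔSE12313-b. For both ratios the ranges of the clones lay apart from those of the controls.

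**Figure D3:**
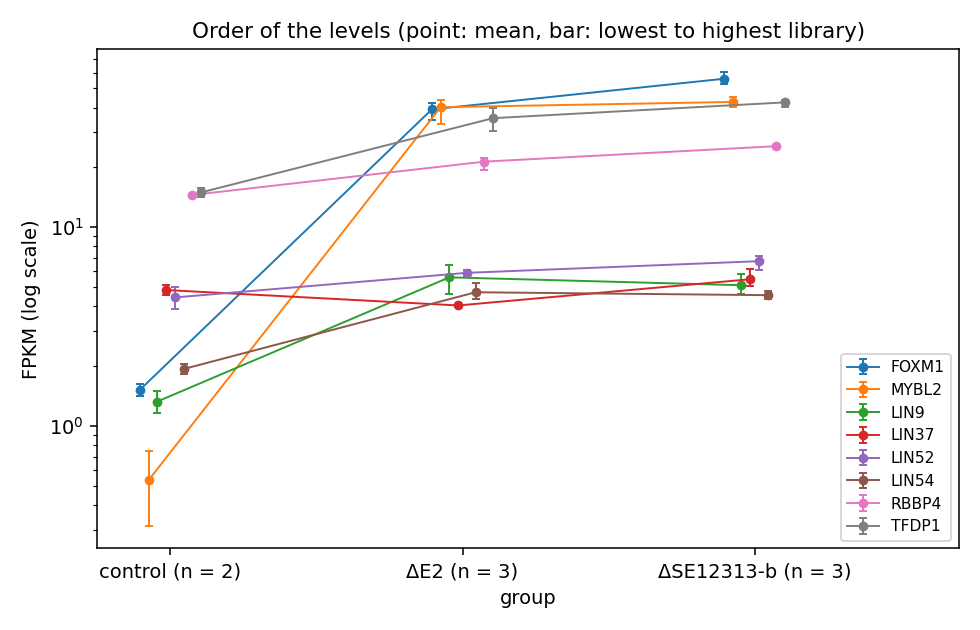
Mean FPKM of the 8 genes in the control (n = 2), ΔE2 (n = 3) and ΔSE12313-b (n = 3) libraries on a log axis, with bars from the lowest to the highest library. MYBL2 and FOXM1 climb from 0.532 and 1.52 FPKM to the top of the order, and the line of LIN37 is nearly flat.

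The 2 deletions were also compared directly. By limma 0 of the 8 genes were called between ΔE2 and ΔSE12313-b, and 0 were called by limma's voom on the recovered reads. Among all tested genes 1.6% were called higher and 2.63% lower in ΔE2. At an adjusted p under 0.05 and any size, 3 of the 8 were lower in ΔE2, against 19.3% of all genes lower and 6.69% higher, and at an unadjusted p under 0.05 there were 4. These 3 were FOXM1, LIN37 and RBBP4. FOXM1 was lower in ΔE2 by -0.51 ± 0.10 (adjusted p = 0.0092), LIN37 by -0.42 ± 0.10 (adjusted p = 0.021) and RBBP4 by -0.26 ± 0.07 (adjusted p = 0.032). For FOXM1 the difference had an adjusted p under 0.05 under every one of the 19 alternatives, from -0.57 to -0.37. For LIN37 it held under 15 and for RBBP4 under 8 of the 19, and for both it was lost after centring (-0.29, adjusted p = 0.077, and -0.13, adjusted p = 0.19). For LIN37 the adjusted p was also above 0.05 without ΔE2 clone 1 (adjusted p = 0.059) or clone 3 (adjusted p = 0.057). For RBBP4 it was so without either control, without ΔE2 clone 1 or without any 1 of the ΔSE12313-b clones, with values from 0.059 to 0.084.

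For the other 5 genes the difference between the deletions was not significant. The 95% interval was -0.66 to 0.47 for MYBL2, -0.25 to 0.50 for LIN9, -0.45 to 0.07 for LIN52, -0.20 to 0.29 for LIN54 and -0.51 to -0.03 for TFDP1. The interval of TFDP1 is not adjusted for the number of genes, and its adjusted p was 0.090.

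Genes that MYBL2, MuvB and FOXM1 are known to activate in G2 and mitosis were examined as a list of 37, among them cyclins, Aurora kinases, mitotic kinesins and centromere proteins. All 37 were called higher in both deletions, and this held under each alternative that was run. Of all tested genes 11.2% were called higher in ΔE2 and 14.7% in ΔSE12313-b. The list was chosen with earlier results of these data known, so its count is not an independent test. Their log2 fold changes had a median of 4.34 in ΔE2 and of 4.25 in ΔSE12313-b. The 2 largest changes, averaged over the deletions, were those of the kinesin KIF20A and of BIRC5 (survivin). KIF20A was at 1.01 and 0.913 FPKM in the controls, at 35.2 to 44.8 FPKM in ΔE2 and at 37.1 to 41.3 FPKM in ΔSE12313-b, a rise of 5.24 and 5.22. BIRC5 rose by 5.11 and 5.21. The smallest were those of the spindle protein CKAP2 (2.44 and 2.38) and of the cytokinesis regulator ECT2 (1.78 and 1.68). ECT2 was at 13.0 and 11.9 FPKM in the controls, far above KIF20A there, and at 34.9 to 49.3 FPKM in the clones, close to KIF20A.

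A second list held 30 genes of the G1/S transition that E2F activates and DREAM represses. All 30 were called higher in both deletions, with medians of 3.24 and 3.27. This list too was chosen with earlier results known, so the same limit holds for its count. The largest changes were those of the nucleotide synthesis enzymes RRM2 (6.50 and 6.30) and TK1 (6.21 and 6.26). RRM2 was at 1.07 and 0.611 FPKM in the controls and between 62.1 and 98.3 FPKM in the clones. The smallest were those of the polymerase subunit POLA1 (1.68 and 1.63) and of the histone mRNA-binding protein SLBP (1.00 and 1.16). SLBP sat on the 2-fold limit in ΔE2, and after centring 29 of the 30 were called in each deletion. In ΔE2 this was also the count without control 2, without ΔE2 clone 1 and without ΔE2 clone 3.

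**Figure D4:**
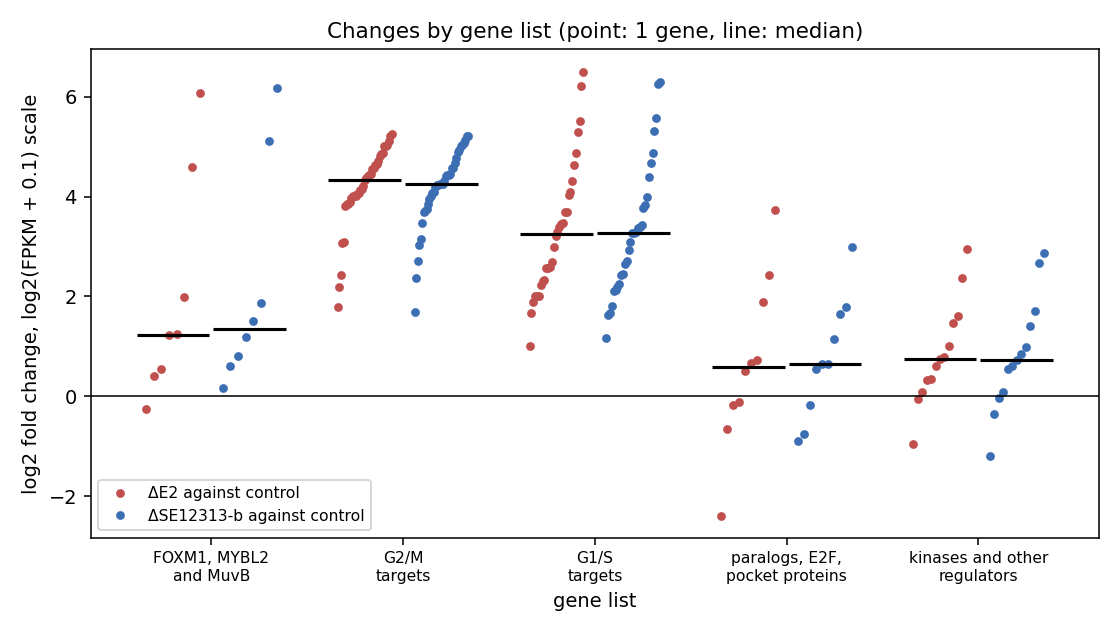
Log2 fold changes on the log2(FPKM + 0.1) scale in ΔE2 (red) and ΔSE12313-b (blue) against control, with 1 point per gene and a line at the median of each list. All points of the G2/M and G1/S lists lie at 1.00 or higher, whereas the MuvB list and those of partners and regulators also hold genes near or below 0.

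Paralogs of the members and their partners in DREAM and E2F complexes were mixed. Of 10 such genes, 3 were called higher and 1, E2F5, lower in ΔE2, against 11.2% and 8.36% of all genes. In ΔSE12313-b 4 of the 10 were called higher, against 14.7% of all genes. The other MYB genes were low but rose with MYBL2. MYBL1 (A-MYB) went from 0.173 and 0.166 FPKM to 2.34 to 4.23 FPKM in ΔE2 and 1.18 to 3.01 FPKM in ΔSE12313-b, a rise of 3.72 and 2.98. MYB rose by 2.42 and 1.64 and stayed under 1 FPKM in every library. It rests on 0 and 2 reads in the controls and on 10 to 30 in the clones. Its control values, 0 and 0.054 FPKM, lie under the pseudocount of 0.1, so the size of its change depends on it. MYBL2 remained the most abundant of the 3, with 10.3 to 14.1 times the FPKM of MYBL1 in ΔE2 and 13.4 to 36.0 times in ΔSE12313-b.

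RBBP7, the paralog of RBBP4, rose by 0.72 in ΔE2 (adjusted p = 6.66e-05, limma) and by 1.16 in ΔSE12313-b (adjusted p = 4.71e-06, limma). It was 36.7 and 36.4 FPKM in the controls and 58.2 to 83.3 FPKM in the clones. The FPKM of RBBP4 was 0.3953 and 0.3999 times that of RBBP7 in the controls, 0.335 to 0.373 times in ΔE2 and 0.307 to 0.321 times in ΔSE12313-b. TFDP2, the paralog of TFDP1, was between 0.834 and 2.27 FPKM in all libraries. Its log2 fold change was -0.17 in ΔE2 (adjusted p = 0.55) and 0.65 in ΔSE12313-b (adjusted p = 0.042), and the deletions differed by -0.82 (adjusted p = 0.024, limma).

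The pocket proteins went in different directions. RBL1 (p107), itself a cell cycle gene, rose from 4.27 and 3.53 FPKM to 12.7 to 16.0 FPKM in ΔE2 and 12.0 to 15.3 FPKM in ΔSE12313-b, by 1.89 and 1.79. RB1 rose by 0.67 and 0.65. RBL2 (p130), the pocket protein of DREAM in resting cells, fell by 0.66 in ΔE2 (adjusted p = 0.0081) and by 0.75 in ΔSE12313-b (adjusted p = 0.0038), from 17.0 and 16.2 FPKM to between 8.55 and 13.0 FPKM. An adjusted p under 0.05 at any size was reached downwards by 19.4% of all genes in ΔE2 and by 16.4% in ΔSE12313-b. E2F4, the main E2F of DREAM, was at 27.8 to 33.4 FPKM in all libraries, with changes of -0.12 (adjusted p = 0.26) and -0.18 (adjusted p = 0.097). E2F5 was low and fell by 2.39 in ΔE2 (adjusted p = 0.0026), while its change of -0.89 in ΔSE12313-b had an adjusted p of 0.12. E2F3 rose by 0.50 and 0.54. After centring E2F3 (0.34 and 0.25) did not pass the test in either deletion, nor did TFDP2 in ΔSE12313-b (0.36), whereas E2F4 passed it as lower in both (-0.28, adjusted p = 0.017, and -0.47, adjusted p = 0.0015). Centring also took RBBP7 in ΔSE12313-b to 0.87, so that it lost its call, and RBL2 there to -1.04, so that it was called lower.

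Of 13 genes that act on FOXM1, MYBL2 or MuvB, 5 were called higher in ΔE2, against 11.2% of all genes. In ΔSE12313-b 4 were called higher and 1, CDKN1A, lower, against 14.7% and 7.83% of all genes. CDK2, which phosphorylates MYBL2 and FOXM1, rose by 1.61 and 1.72. CDK4 rose by 1.01 and 1.42 and CDK6 by 1.48 and 0.86. MELK, a kinase linked to FOXM1, rose by 2.94 and 2.88, and CCNF (cyclin F), which acts on MYBL2, by 2.37 and 2.68. CDKN1A (p21), an inhibitor of cyclin-dependent kinases, went from 81.5 and 79.9 FPKM to 39.0 to 46.4 FPKM in ΔE2 and 33.2 to 37.8 FPKM in ΔSE12313-b, and fell by 0.96 and 1.20.

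The remaining regulators were not called in either deletion. DYRK1A, the kinase that acts on LIN52, rose by 0.34 and 0.55, and LATS2, which acts upstream of DYRK1A, by 0.75 and 0.61. FZR1, which directs FOXM1 to degradation, rose by 0.79 and 0.73. CCND1 rose by 0.33 in ΔE2 and had a value of 0.10 in ΔSE12313-b (adjusted p = 0.35). FOXO1 had a value of 0.60 in ΔE2 (adjusted p = 0.096) and rose by 1.00 in ΔSE12313-b. FOXO3, which opposes FOXM1, had a value of 0.08 in ΔE2 (adjusted p = 0.58) and fell by 0.35 in ΔSE12313-b. After centring an adjusted p under 0.05 was lost by DYRK1A (0.18) and CCND1 (0.18) in ΔE2 and by LATS2 (0.33), CDK6 (0.57) and FOXO1 (0.71) in ΔSE12313-b, and the values of CCND1 in ΔSE12313-b (-0.19) and FOXO3 in ΔE2 (-0.08) turned direction without passing the test. In ΔE2 centring also took CDK4 to 0.85, so that it lost its call, and CDKN1A to -1.12, so that it was called lower.

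Promoter sequences were available from RefSeq (GRCh38.p14) for 7 of the 8 members, but not for FOXM1, as 250 bases before to 50 after each start, with more than 1 start for some genes. They were searched on both strands for the CHR element (TTTGAA or TTCGAA), for a core of E2F sites (GGCGGGA), for longer E2F sites (TTTCCCGC, TTTCGCGC, TTTGCCGC or TTTGGCGC) and for the CCAAT box (CCAAT). These letters were chosen after the promoters had been seen, and the core can overlap with TTTCCCGC. A match describes letters and shows no binding. The core was present in 7 of 7 members, and in 18.0% of the 27305 genes with a promoter in the collection, in 68.0% of the G1/S list (25 genes with a promoter) and in 8 of the 32 genes of the G2/M list that have one. A gene was counted if the window of any of its starts held a match. For LIN37 the core and the CHR element were found at only 1 of its 2 starts, and for LIN9 at only 1 of its 3. The stretches around the match nearest to the start are shown because this is the feature the members had in common, the barely changing LIN37 included, with the match in capitals (GGCGGGA, or TCCCGCC where it reads on the other strand).
MYBL2 (chr20:43667064-43667093, plus strand): ccgacgcgcttGGCGGGAgatagaaaagtg
TFDP1 (chr13:113584566-113584595, plus strand): cgcgcagcactGGCGGGAggagcgggagac
LIN9 (chr1:226309250-226309279, minus strand): cagccagccgcGGCGGGAgcagcgcagcgc
LIN54 (chr4:83010887-83010916, minus strand): gttggcggggcGGCGGGAggcttccccgga
RBBP4 (chr1:32651121-32651150, plus strand): ttccccgcccaTCCCGCCattaggagcgct
LIN52 (chr14:74084922-74084951, plus strand): gaacctcgtttTCCCGCCgacggttggcca
LIN37 (chr19:35748641-35748670, plus strand): tccccgccttcTCCCGCCttgacttgtgac

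The CHR element, to which LIN54 binds, was found in 3 of the 7 members, in 75.0% of the G2/M list, in 8.0% of the G1/S list and in 19.5% of all genes. A longer E2F site was found in 2 of the 7 members, LIN52 and TFDP1, in 60.0% of the G1/S list, in 9.38% of the G2/M list and in 3.99% of all genes. In LIN52 it overlaps with the core. The CCAAT box was found in 3 of the 7 members (LIN37, LIN52 and RBBP4), in 84.4% of the G2/M list, in 68.0% of the G1/S list and in 39.7% of all genes. The stretches with a CHR element are given with the element in capitals for the 3 members, of which LIN9 and LIN54 were called and LIN37 was not, and for ECT2, the G2/M target with the smallest change. KIF20A, the G2/M target with the largest change averaged over the deletions, had no CHR element in its window. Shown is the match closest to the start that lies wholly before it. LIN9 has another at -3, across the start (position 0), and LIN54 has the same element in a window from another start. ECT2 has a further match at 34, which is the same site as -242 counted from its other start. From that other start it also has a match at -182.
LIN9 (chr1:226309207-226309236, minus strand): gcgagctccgcaTTCGAAcctccctcgcaa
LIN54 (chr4:83010906-83010935, minus strand): ggcccttgtgcgTTTGAAggttggcggggc
LIN37 (chr19:35748620-35748649, plus strand): acgaagctcatcTTTGAActgtccccgcct
ECT2 (chr3:172750599-172750628, plus strand): tcgttgggcttaTTTGAAacacacgcacaa

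FOXM1 starts 0.04 kb from RHNO1, a checkpoint gene that is transcribed in the opposite direction. RHNO1 was at 9.88 and 9.33 FPKM in the controls, at 12.7 to 14.4 FPKM in ΔE2 and at 21.5 to 23.3 FPKM in ΔSE12313-b. It rose by 0.47 in ΔE2 (adjusted p = 0.0022, limma) and by 1.22 in ΔSE12313-b (adjusted p = 1.41e-05, limma), changes much smaller than those of FOXM1, and the deletions differed by -0.76 (adjusted p = 0.00084, limma), in the same direction as FOXM1. On the other side of FOXM1, ITFG2-AS1 was low and its changes of -1.13 and -0.62 did not pass the test.

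The closest tested genes around the other members did not follow a common direction. Beside MYBL2, IFT52 rose by 0.51 and 0.71, and TOX2 fell by 1.32 in ΔE2 with a value of 0.16 in ΔSE12313-b. Beside LIN54, COPS4 rose by 1.14 and 1.10 and THAP9-AS1 fell by 0.99 and 1.18. Beside LIN9, PARP1 rose by 0.97 and 1.10, and ACBD3 fell by 0.31 in ΔE2 with a value of -0.07 in ΔSE12313-b. ALDH6A1, which starts 0.46 kb from LIN52 on the other strand, fell by 2.60 and 1.86. ABCD4 on the other side fell by 0.39 in ΔE2 and had a value of 0.08 in ΔSE12313-b. Beside LIN37, PSENEN rose by 0.35 and 0.66, and PROSER3 had values of -0.01 in both. Beside RBBP4, ZBTB8OS (0.09 and 0.35) and KIAA1522 (0.15 and 0.50) did not pass the test. Beside TFDP1, TMEM255B fell by 1.52 and 1.49, and TMCO3 (-0.19 and 0.13) did not pass the test. After centring PSENEN did not pass the test in ΔE2 (0.20), ACBD3 passed it as lower in ΔSE12313-b (-0.36) and so did TMCO3 (-0.35) and ITFG2-AS1 (-1.29) in ΔE2. Values of TOX2, ABCD4 and TMCO3 in ΔSE12313-b and of ZBTB8OS and KIAA1522 in ΔE2 turned direction, none of them past the threshold. With centring RHNO1 (0.93) and PARP1 (0.81) in ΔSE12313-b and COPS4 in both deletions (0.98 and 0.81) lost their calls. THAP9-AS1 (-1.14) and ITFG2-AS1 were then called lower in ΔE2.

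The tested genes most like FOXM1 over the 8 libraries, by Pearson correlation of log2(FPKM + 0.1), were CEP55, PCLAF, CDK1, SPC24 and MCM10, with r from 0.9991 to 0.9996. Those most like MYBL2 were EXO1, OIP5, HIST1H2AB, HIST1H3F and PRC1, with r from 0.9988 to 0.9996. Controls and clones lie far apart in all of these genes, and MYBL2 itself came at rank 168 for FOXM1 (r = 0.993). LIN37 had an r of 0.01 with FOXM1 and of -0.05 with MYBL2. After the group means were taken out, the genes most like FOXM1 were NTMT1, PPP2R2D, TIMM10, NIPAL3 and IGF2BP2 (r from 0.9856 to 0.9984). LIN9 followed at rank 7 with 0.983 and TFDP1 at rank 175 with 0.916, and LIN52 had -0.75. Those most like MYBL2 were DRG1, SPATA2, EXO1 and the rows of the small RNA genes MIR621 and SNORA20, with r from 0.9771 to 0.9861. MIR621 rests on 0 to 10 reads per library and SNORA20 on 0 to 2. In the controls EXO1 rests on 4 and 11 reads and MYBL2 itself on 11 and 25. The controls of MYBL2 lie farther apart on the log2 scale than its clones within either deletion. The order for MYBL2 after the group means were taken out therefore carries little information. These correlations rest on 8 libraries that share 3 group means. LIN54 had an r of 0.27 with FOXM1 and of -0.24 with MYBL2 in this way.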

How the data were processed

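Total RNA from 8 EA.hy926 libraries (2 control, 3 ΔE2, 3 ΔSE12313-b) was sequenced single-end on 1 platform with a directional kit. The authors trimmed reads with Trim Galore 0.4.4, mapped them to GRCh37 with STAR 2.5.4b and deposited FPKM for each of 65572 RefSeq transcripts. The table is laid out as HOMER writes it, but the tool and its handling of strands are not given in the sources used here. Groups and replicate numbers were taken from the labels.

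Each of 27946 genes was represented by its transcript of highest mean FPKM. A gene entered the test if 2 or more libraries reached 0.5 FPKM, which left 13790. Values were taken as log2(FPKM + 0.1) and fitted by limma 3.58.1 (R 4.3.3) as 3 groups in 1 model (empirical Bayes with trend, two-sided, Benjamini-Hochberg adjustment over all tested genes). This scale understates the changes of low genes. The FPKM were whole multiples of 1 read for 99.99% of the values checked (within 0.1 read), which gave the reads behind them. These were used for depth and for 1 alternative, limma voom. Intervals cover the spread between libraries, and reads the counting error. The steps were tested on simulated data. The exon overlaps and pseudogenes are from Gencode v44lift37.

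The members and all gene lists were chosen with earlier results of these data known. The rule for named genes took the 8 members, the closest tested gene on each side, all partners and regulators, the 2 largest and 2 smallest changes of each target list, the 5 genes most like FOXM1 and MYBL2 in each way, ADAMTS18 and RHNO1. ITFG2 and SYNC were added for their overlap, and marker genes for the check of the cell line. A few genes of these lists are not reported here by name. The authors' own calls rest on gene counts from featureCounts, which were not used here. Alternatives were other pseudocounts, filters, scalings, fits, thresholds and transcripts, and each library left out in turn.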

Additional observations from a re-analysis of the deposited data

Results flagged for a closer look

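For 3 of the 8 genes the effects of the 2 deletions differed in the direct comparison by limma, at an adjusted p under 0.05 and any size. By the same rule 19.3% of all tested genes were lower and 6.69% higher in ΔE2. FOXM1 was lower in ΔE2 than in ΔSE12313-b, at -0.51 on the log2 scale (adjusted p = 0.0092), with the 3 ΔE2 clones below the 3 ΔSE12313-b clones. LIN37 differed by -0.42 (adjusted p = 0.021) and RBBP4 by -0.26 (adjusted p = 0.032), again with no overlap between the clones. The clones of the 2 deletions did not overlap for LIN52 and TFDP1 either, where the difference was not significant, so this does not set the 3 genes apart. The share of all tested genes without such overlap is not given here. Over all tested genes the median of this difference was -0.11, and the values of LIN37 and RBBP4 did not pass the test once the libraries were centred. With 2 or 3 libraries in a group, no search for single outlying libraries was made.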

How the results depend on the processing

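Of 456 recomputed changes of the 8 genes (19 alternatives, 3 comparisons), 425 kept their direction and their side of the threshold, 23 lost and 2 gained significance, and 6 turned direction. FOXM1, MYBL2, LIN9, LIN54, RBBP4 and TFDP1 kept an adjusted p under 0.05 against control in both deletions under every alternative. Those that turned were not significant in any case, namely LIN37 in ΔSE12313-b after centring (-0.115) and quantile normalization (-0.088), MYBL2 between the deletions under the same settings (0.031 and 0.051) and without ΔE2 clone 2 (0.038, with -0.168 to 0.038 over all single libraries left out), and LIN54 between the deletions without ΔE2 clone 3 (-0.033, with -0.033 to 0.099 over all). The cause was not tested.

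Counts moved more than 1.5-fold under few settings. A pseudocount of 1 gave 1718 genes in ΔE2 (2697 before), 2004 in ΔSE12313-b (3112) and 240 between the deletions (583). A 1.5-fold limit gave 5054, 5802 and 1631 genes, and for partners 7 and 7 and for regulators 8 and 9, as a lower limit must admit more genes. An adjusted p under 0.01 gave 383 genes between the deletions. Partners called in ΔE2 went from 4 to 2 with a pseudocount of 1 and with a mean FPKM of at least 1, where MYB and E2F5 are low. Centring turned the balance of all calls from 1544 higher and 1153 lower to 1170 and 1464 in ΔE2, and from 2032 and 1080 to 1201 and 1570 in ΔSE12313-b.

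Same-numbered clones of the 2 deletions did not deviate together (correlations 0.107, -0.080 and -0.073), and ΔE2 clones 2 and 3 correlated best with another number, so the numbers were not taken as pairs. With a replicate block 5 members were called in each deletion, as without it, 2530 genes in ΔE2 and 2962 in ΔSE12313-b, and only LIN52 in ΔE2 (0.40, adjusted p = 0.081) and RBBP4 between the deletions (adjusted p = 0.076) lost significance among the members. The 11 and 25 control reads of MYBL2 and the 2 controls limit the precision of its change.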
